A study of Homo sapiens with 131 samples.

Results

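The genes described here encode the best-known RNA-binding splicing factors: the heterogeneous nuclear ribonucleoproteins (hnRNPs), the serine/arginine-rich splicing factors (SRSF) and the SF3A and SF3B subunits of the U2 particle. They were chosen by gene symbol, with processed pseudogenes left out, which gave 46 of the 60708 genes in the expression table: 25 hnRNP genes, 12 SRSF genes and 9 SF3A or SF3B genes. The cells were HAP1, a near-haploid human line derived from a leukaemia line with a BCR-ABL1 fusion. From each mid-S cell, DNA held on beads went into a replication (scRepli-seq) library and the RNA left in the supernatant, which is mainly cytoplasmic, into a full-length total RNA (RamDA-seq) library, a pairing called scRR-seq. The labels list 63 mid-S cells with both libraries and 5 G1 cells with a DNA library, and name no treatment. The tables contain 56 of the mid-S cells, and the remaining 7 and the G1 cells were not analysed here. Because the cells belong to 1 experiment, p-values describe spread from cell to cell and no repeat of the experiment.

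SR proteins bind short exonic motifs and help the spliceosome to recognise exons, while hnRNPs coat new transcripts and often oppose exon use. SF3A and SF3B hold the U2 particle at the branch point of the intron. Many SR and hnRNP genes regulate themselves through their own splicing: when the protein is abundant, an intron is kept or a stop-bearing exon is included, and that RNA stays in the nucleus or is degraded by nonsense-mediated decay.

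The percentage replication score, the share of called 40-kb bins in the 2-copy state, ran from 39.7% to 67.2%. Cell numbers separate a first set of 29 cells, up to number 65, from a second set of 27 cells. The sets were found in earlier results of these data from mitochondrial share and unspliced totals, and the labels do not name them. Their differences in these values are therefore no separate finding, and p-values between the sets do not count this choice. Mitochondrial RNA took 4.98% to 18.3% of TPM (transcript abundance scaled to a common total) in the first set and 2.57% to 5.55% in the second, and the median unspliced total was 812254 against 568578 counts. The mean score was 50.7% ± 7.75 against 56.4% ± 7.07 (SD). Values by set are given where they bear on a result. Of the fusion partners, BCR was above 0 in 53 cells and ABL1 in 49, the proliferation markers MKI67, PCNA and MCM3 in all 56, the leukocyte marker PTPRC in 1, the T cell marker CD3E in 0 and the globin gene HBG1 in 1. CD34 was above 0 in 27 cells and reached 1 TPM in 4, and the fibroblast markers COL1A1, COL1A2 and DCN were above 0 in 29, 4 and 18. The part of these markers in the results was not tested.

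Many introns of these genes are annotated as retained, and splice sites of such introns are shown first. The authors' unspliced value is what remains of the reads over a gene body once exon reads are taken away, so an intron that lies inside an exon of any annotated transcript may count as exon. In GENCODE version 44, 57 of the 365 introns in the main transcripts of 38 members (15.6%) lay wholly inside an exon of a transcript annotated as a retained intron, compared with 6.11% of 146247 introns of all expressed genes. The share was 21.99% for hnRNP genes, 14.04% for SRSF genes and 5.98% for SF3A and SF3B genes. Genes were not matched for the number of annotated transcripts, which was 84 for HNRNPA1 and 49 for HNRNPH1. The following windows (hg38) show 10 exon bases, then the start of the intron, whose first 2 bases are in capitals. HNRNPH1, HNRNPA1 and SRSF5 are shown because their RNA differed between the library sets and each has several such introns.
HNRNPH1 intron 3, chr5:179621222-179621251, minus strand: tatgttgaagGTttgatttacattgcccta
HNRNPH1 intron 5, chr5:179619249-179619278, minus strand: tagggcacagGTggggatggatggttggtt
HNRNPH1 intron 7, chr5:179617969-179617998, minus strand: tttggaagagGTaaggtaagaattgaattt
HNRNPH1 intron 10, chr5:179617031-179617060, minus strand: ggtgcttacgGTagccaaatgctaggaggc
HNRNPH1 intron 11, chr5:179616849-179616878, minus strand: atgggcttgtGTaaatatcgttagtttttt
HNRNPH1 intron 12, chr5:179616106-179616135, minus strand: agtggatacgGTaaagcctgtttgttactg
HNRNPH1 intron 13, chr5:179615526-179615555, minus strand: cattgcatagGTaaatattttctcaaaaaa
HNRNPA1 intron 1, chr12:54280813-54280842, plus strand: taagtcagagGTgagttaggcgcgctttcc
HNRNPA1 intron 2, chr12:54281493-54281522, plus strand: ggactgtgtgGTaagatttggaagggacaa
HNRNPA1 intron 5, chr12:54282477-54282506, plus strand: agccaaagagGTatgcttgttgcttaatta
HNRNPA1 intron 6, chr12:54282656-54282685, plus strand: agtggtcgtgGTatgtatggtttatctaca
SRSF5 intron 2, chr14:69768273-69768302, plus strand: tggttttgtgGTaagtatttagaactgggt
SRSF5 intron 3, chr14:69768665-69768694, plus strand: gtagtgaaagGTgagattcctgtgtaacta
SRSF5 intron 4, chr14:69768887-69768916, plus strand: atgatagacgGTatgtgaagggtggatggc
SRSF5 intron 5, chr14:69769242-69769271, plus strand: cagctggcagGTttgttgaaatacagtttt

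Nearly all of these introns began with the usual GT: 55 of the 57 annotated as retained and 304 of the 308 others. The 9 letters around the exon end were compared with CAGGTAAGT, the sequence that pairs with U1 RNA. Retained introns matched at 6.32 ± 0.87 letters (mean ± SD) and the others at 6.37 ± 0.98, with wide overlap. The introns annotated as retained were shorter, with a median of 307 bases against 884. To be counted, an intron had to lie inside a single annotated exon, which favours short introns. HNRNPH1 intron 10 had the weakest match among those printed, at 4 of 9 letters. HNRNPH1 had 8 of 13 introns annotated as retained, HNRNPA1 had 4 of 10 and SRSF5 4 of 7. HNRNPU, the scaffold-associated hnRNP, had 11 of 13. SRSF6, SRSF9, HNRNPM, HNRNPF and SF3B3 were among those with no intron counted in this way. Transcripts annotated as retained introns still exist for SF3B3 (7), SRSF9 (3) and HNRNPM (3).

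The members were abundant and steady from cell to cell. Of the 46, 42 reached a TPM of 1 in at least 20% of cells, which is the filter used for spliced RNA throughout. The 4 that did not were HNRNPCL1, HNRNPCL2, HNRNPCL3 and HNRNPCL4, copies of HNRNPC on chromosome 1, with a highest value of 2.17 TPM in any cell. The median member had 235.2 TPM, against 11.2 TPM for all 17132 genes that passed the filter, and 30 of 42 members (71.4%) had a median of at least 100 TPM, against 8.14% of all genes. The median coefficient of variation between cells was 37.95%, against 98.6% for all genes. The members' higher level goes with this smaller variation, and genes of matched level were not compared.

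HNRNPA1, an inhibitor of exon inclusion and a shuttling RNA-binding protein, was the most abundant member, with 1037 TPM in the lowest cell, a median of 2159 and 3219 in the highest. HNRNPH1, which binds G-rich motifs, had 439 to 1688 TPM around a median of 927, and HNRNPC, which binds uridine tracts, had 386 to 1129 around 749. The lowest expressed hnRNP gene that passed the filter was HNRNPA1L2, a gene similar to HNRNPA1 without introns, at a median of 3.51 TPM and up to 38.6. Of the 124 pseudogene rows left out, 75 belonged to HNRNPA1. Their summed level had a median of 52.8 TPM, 2.45% of HNRNPA1, of which HNRNPA1P48 had 26.5 TPM.

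Among the SR genes, SRSF3, the smallest SR protein, had 131 to 844 TPM with a median of 431, SRSF2 had 204 to 787 with 391, and SRSF11 had 172.5 to 1022 with 355. SRSF12 was the lowest, with a median of 4.74 TPM and values up to 39.2. SRSF1, the prototype of the family, had a median of 307 TPM and one of the smallest coefficients of variation, 23.9%, next to 23.3% for HNRNPA2B1. Among SF3 subunits, SF3B3 had 52.4 to 893 TPM with a median of 378, SF3B6, which contacts the branch point region, had 82.3 to 496 with 268, and SF3B1, the scaffold that encloses the branch point helix, had 69.3 to 561 with 206. SF3A2 had the lowest median, 41.6 TPM, with 6.16 to 94.5. SF3A2 overlaps PLEKHJ1 (80.98 TPM) on the other strand, and no source used here says if reads were counted by strand.

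**Figure D1:**
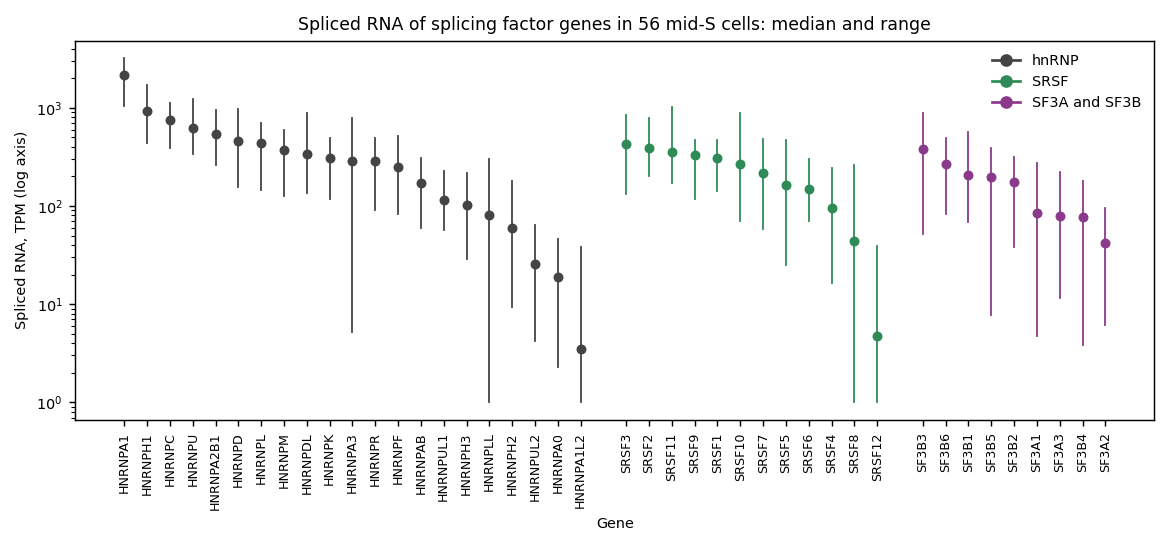
Spliced RNA of the 42 members that passed the filter, in TPM on a log axis. Points are medians and lines span the lowest to the highest of 56 cells, with values below 1 TPM drawn at 1. Genes are grouped as hnRNP, SRSF and SF3, and the medians descend within each group. The highest median is 2159 TPM for HNRNPA1 and the lowest is 3.51 TPM for HNRNPA1L2.

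All members together made up a median of 1.27% of TPM per cell. Their sum was 8688 TPM in the lowest cell, 12679 in the median cell and 16770 in the highest. The hnRNP genes carried most of it, with a median sum of 8468 TPM, followed by SRSF genes with 2819 and SF3 genes with 1533.

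Unspliced RNA was listed at 0 for many members despite their high spliced levels. Copy-state and unspliced rows existed for 34 members. The other 12 lie on chromosome 1 (11 genes) or X (HNRNPH2), which these tables do not hold. The median unspliced count was listed at 0 for 22 of the 34 (64.7%), compared with 48.2% of 12957 expressed genes, and for 15 of the 26 with at least 100 TPM (57.7%), compared with 45.9% of 996 genes at that level. It was 0 in every cell for HNRNPA1, SRSF1, SRSF2, SRSF6, SRSF8, SF3B2, SF3B5 and HNRNPA0 among members with a median of at least 10 TPM. In HNRNPA1, 97.1% of the gene span is annotated as exon of some transcript and 90.8% of the intron bases of the main transcript lie in such exons. HNRNPA0, SF3B5 and SRSF8 are annotated as exon over their whole span, so no unspliced count could arise. SRSF2 has 92.5% and SRSF1 89.9%. The other 2 of the 8 have introns outside annotated exons: SRSF6 has 60.02% exon cover with 0% of the main transcript's intron bases inside exons, and SF3B2 has 52.7% exon cover with 4.73% of them inside exons.

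Over all genes with at least 100 TPM, the share with a median unspliced count of 0 was 22.8% where exons cover under 20% of the span, 47.9% at 20 to 40%, 65.4% at 40 to 60% and 84.4% from 60% upwards. Members at that level were counted in the same ranges. In the same order, a median of 0 was found for 2 of 6, 1 of 4, 6 of 9 and 6 of 7. The members were annotated with more exon cover than other genes, with a median of 39.7% against 18.8%. Transcripts annotated as retained introns exist for 31 of 42 members (73.8%, against 45.6% of expressed genes) and transcripts annotated for nonsense-mediated decay for 29 (69.05%, against 35.6%), including 12 of 12 SRSF genes. Here too, genes were not matched for the number of annotated transcripts. What sets the counts of 0 in individual members was not tested. HNRNPH1, with 53.7% of its intron bases inside exons, had counts in every cell.

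**Figure D2:**
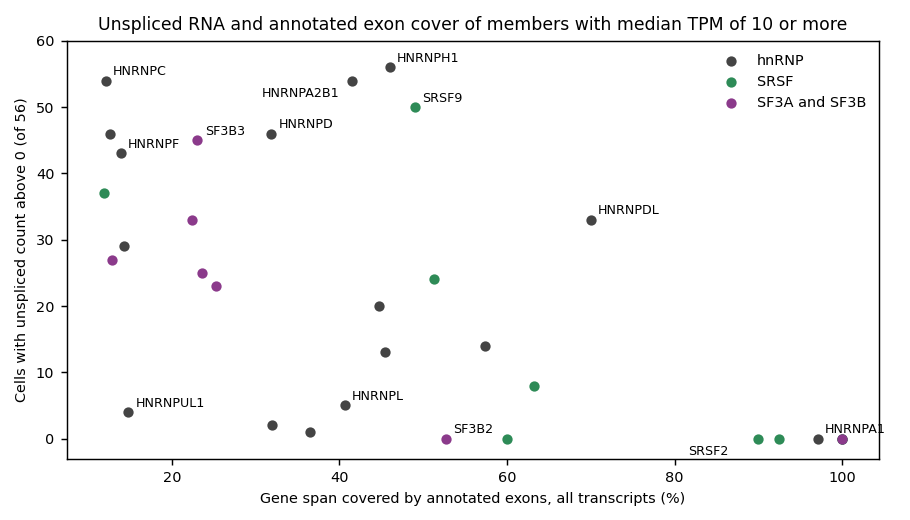
Number of cells, of 56, with an unspliced count above 0 (y axis) against the percent of the gene span that annotated exons cover (x axis), for members with a median of at least 10 TPM and an unspliced row. HNRNPH1 had counts in 56 cells at 46.0% cover, whereas HNRNPA1 at 97.1% and SRSF2 at 92.5% had none.

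HNRNPH1 was the only member with unspliced counts in all 56 cells. It had 32.8 counts in the lowest cell, a median of 224 and 679 in the highest. HNRNPC, with an intron of 29081 bases and 0.173% of its intron bases inside annotated exons, ranged from 0 to 1459 counts with a median of 121. HNRNPD, which binds AU-rich elements, ranged from 0 to 855 and was above 0 in 46 cells. HNRNPA2B1, a reader of exon and intron motifs that is related to HNRNPA1, ranged from 0 to 397 with a median of 66.7, but its gene overlaps CBX3 (225 TPM) on the other strand. HNRNPM had a median of 36.5 counts, HNRNPF of 32 and SRSF9, which overlaps GATC (19.9 TPM) on the other strand, of 10.3.

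Relative to gene length and spliced level, the most unspliced RNA among members with at least 10 TPM was found in HNRNPH3, with a mean of 2.39 counts per kb of gene per 100 TPM, followed by SF3A2 with 2.26, HNRNPD with 1.69, HNRNPH1 with 1.22 and HNRNPF with 0.868. The first 2 of these rest on few cells, since HNRNPH3 was above 0 in 20 cells and SF3A2 in 25, and HNRNPH3 overlaps RUFY2 (14.9 TPM) on the other strand. Of the members with at least 10 TPM, those 8 at 0 in every cell had the least. SRSF5 had 0.0202, with a median of 0.29 counts and a highest cell at 33. Its annotated span is 45106 bases, but the longest intron of its main transcript has 1215 bases. Of that transcript's intron bases, 57.7% lie inside annotated exons, and the part of both in the low value was not tested.

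Spliced and unspliced RNA of a member had the largest correlation in HNRNPH1 when both sets were pooled, but not within either set. Its Spearman correlation was 0.577 over 56 cells, 0.466 within the first set and 0.313 within the second. Both values come from the same library, which they share with its depth. The median correlation was 0.0233 over 25 members and 0.108 over 11222 genes with any unspliced count. SRSF7 had 0.356 over all cells, with 0.617 in the first and 0.0540 in the second set, and HNRNPD had 0.383 in the second set, whereas HNRNPL had -0.314, with unspliced counts in 5 cells.

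Members were called between the library sets and not along the replication score. In spliced RNA, limma on log2(TPM + 1) called 6 of 42 members at an adjusted p under 0.05. The background share was 7.99% of all 17132 genes, 4.44% higher and 3.55% lower in the second set, and 4 members were higher and 2 lower. HNRNPA1, SRSF3, HNRNPDL and SRSF9 were higher in the second set, and HNRNPH1 and SRSF5 were lower. All 6 kept their call and direction when the score was added to the model, with a pseudocount of 0.1, with a looser filter and without mitochondrial genes. The sets were found by mitochondrial share and unspliced total, and what else separates them cannot be told from the labels.

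HNRNPA1 had 1037, 1543 and 2668 TPM (lowest, median and highest cell) in the first set and 2152, 2522 and 3219 TPM in the second. All 27 second-set cells lay above the median of the first set, and 10 lay above its highest cell. Its fitted value was higher by 0.72 ± 0.07 on the log2(TPM + 1) scale (SE, limma adjusted p = 1.58e-11), a 1.65-fold difference.

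SRSF5 had 86.3, 229 and 466 TPM in the first set and 25.04, 132 and 185 TPM in the second. All 27 second-set cells lay below the first-set median. SRSF5, an SR protein known for a rapid response to growth signals, fell by 0.95 ± 0.19 on the log2(TPM + 1) scale (SE, limma adjusted p = 0.000357).

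SRSF3 had 131, 309 and 829 TPM in the first set and 212, 482 and 844 in the second, and 26 of the 27 second-set cells exceeded the first-set median. The ranges of the sets overlapped for most cells, and the difference was 0.61 ± 0.13 (SE, limma adjusted p = 0.00129). HNRNPDL, a relative of HNRNPD, had 137, 273 and 521 TPM in the first set and 240, 379 and 894 in the second, a difference of 0.55 ± 0.13 (SE, limma adjusted p = 0.00428). Here 23 of 27 second-set cells exceeded the first-set median.

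SRSF9, an SR protein with a short RS domain, had 117, 257 and 452 TPM in the first set and 227, 354 and 473 in the second. It rose by 0.45 ± 0.11 (SE, limma adjusted p = 0.00635), with overlapping ranges and 25 of 27 second-set cells above the first-set median.

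HNRNPH1 had 512, 1030 and 1688 TPM in the first set and 439, 807 and 1306 in the second, where 23 of 27 cells lay under the first-set median. It fell by 0.41 ± 0.12 on the log2(TPM + 1) scale (SE, limma adjusted p = 0.0170). Its unspliced counts were also lower in the second set. Their median was 292 (51 to 679) in the first set and 143 (32.8 to 361) in the second. Unspliced totals, from which the sets were found in part, were lower in the second set too. After TMM normalization in edgeR the median difference over all genes was -0.28 on the log2 scale. That of HNRNPH1 was -0.70 ± 0.24 with an edgeR adjusted p of 0.0677. It passed the threshold in DESeq2 and with its size factors, while with the score as a term in edgeR the adjusted p was 0.130. Of the remaining members, HNRNPAB (0.38 ± 0.13, limma adjusted p = 0.0535) and SF3B5 (0.70 ± 0.24, limma adjusted p = 0.0564) lay just beyond the threshold.

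**Figure D3:**
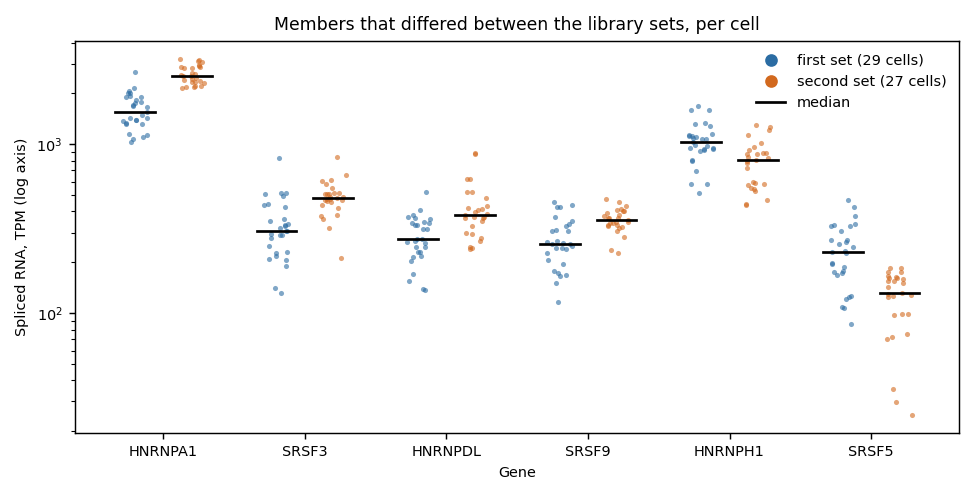
Spliced RNA per cell, in TPM on a log axis, of the 6 members that differed between the sets, with 29 first-set cells in blue, 27 second-set cells in orange and the median as a bar. The second set lies higher for HNRNPA1, SRSF3, HNRNPDL and SRSF9 and lower for HNRNPH1 and SRSF5.

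By subfamily, 18 of 21 hnRNP genes and 8 of 9 SF3 genes had the higher fitted value in the second set, against 3 of 12 SRSF genes. Of all 17132 genes, 8631 did, and 7783 of 17110 without mitochondrial genes, a scale on which the subfamilies were not counted. The median difference was 0.17 for hnRNP, 0.19 for SF3 and -0.07 for SRSF genes on the log2(TPM + 1) scale, beside 0.01 for all genes. These counts are a description without a test. The summed hnRNP level was 7750 ± 1185 TPM (SD, 29 cells) and 9016 ± 1103 TPM (27 cells), of which HNRNPA1 alone had a mean of 1607 ± 386 and 2604 ± 333 TPM, while that of SRSF genes was 2934 ± 426 and 2815 ± 457 TPM. Without mitochondrial genes the median of all genes moved from 0.01 to -0.07, and SRSF10 and SRSF11 were then called as well. The calls over all genes went from 760 higher and 608 lower to 492 higher and 784 lower. With all genes, SRSF11, whose medians were 427 TPM in the first set and 318 in the second, had a limma adjusted p of 0.110 and SRSF10, with 307 and 251 TPM, 0.127. Unadjusted, 10 of 42 members (23.8%) had p under 0.05, against 23.1% of all genes.

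In unspliced RNA, 20 members passed a low-count filter (1 count or more in 20% of cells or more). None of the 20 was called by edgeR between the sets, beside 5.42% of 13314 genes, and 2 had an unadjusted p under 0.05 (18.6% of all genes): HNRNPH1 and SRSF5. SRSF5 had medians of 0.25 and 0.33 counts, and highest cells at 33 and 5.40. The fitted difference was negative for 15 of the 20, beside 8233 of all 13314 genes, with a median of -0.54 against -0.28 for all genes.

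Other genes of the splicing machinery, from 7 lists, also included genes called in both directions between the sets. Over the lists, 8 of 86 genes were called higher and 7 lower, beside the 4.44% and 3.55% of all genes. Of 15 U1, U2 and Sm genes, 3 were called higher in the second set, SNRPG, SNRPF and SNRPD2, and 1 lower: SNRNP70, the U1-specific protein, with a fall of 0.55 ± 0.11 (limma adjusted p = 0.000727). Of 12 SR-like genes, TRA2B, an enhancer-binding relative of the SR proteins, was higher, with medians of 175 and 266 TPM. SRRM2 and SON, the organisers of nuclear speckles, were lower, with 684 and 411 TPM for SRRM2 and 238 and 171 TPM for SON. Of 20 other RNA-binding regulators, PCBP2, PCBP1, PTBP1 and KHDRBS1 were higher and RBM39 was lower, with 544 and 351 TPM. PCBP2 changed by 0.68 ± 0.08 (limma adjusted p = 2.56e-09). CLK2, a kinase of SR proteins, was called among 9 kinases and importers, the other 8 not being called, and it was lower with medians of 102.9 and 41.7 TPM. PRPF3 of the tri-snRNP (1 of 14) and SMG1 of the decay pathway (1 of 10) were lower too, while none of 6 factors of the 3′ splice site was called. In unspliced RNA, 1 of 51 tested genes of the lists was called, beside 5.42% of all genes: RBFOX2, which was higher with medians of 710 and 1232 counts.

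No member was called along the replication score. Fitted as a smooth function of the score with mgcv, log10(TPM + 1) passed the adjusted threshold for 0 of 42 members, beside 0.0409% of all genes, with a lowest adjusted p of 0.289, and limma with a linear term also called 0. An unadjusted p under 0.05 was found for 6 members (14.3%), against 10.4% of all genes. Of the genes in the 7 other lists, 0 were called along the score in spliced or unspliced RNA. In unspliced RNA, edgeR called 0 of 20 members (2.16% of all genes), and HNRNPK alone had p under 0.05 unadjusted (11.5% of all genes), with a slope of -1.83 ± 0.71 log2 units per 10 points of score. HNRNPK was above 0 in only 13 cells.

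HNRNPA0, a small hnRNP that binds AU-rich RNA, had the strongest relation to the score, with a Spearman correlation of 0.469 over 56 cells, 0.489 in the first and 0.238 in the second set. Its median was 14.7 TPM in the 14 cells with the lowest scores and 21.7 TPM in the 14 with the highest. SRSF5 had -0.373 over all cells but -0.0926 and -0.105 within the sets, and SRSF3 had 0.297 but 0.0133 and 0.272. SRSF2 had -0.315, with -0.543 in the first and -0.0916 in the second set, and medians of 494 and 343 TPM in the 14 cells at either end of the score. HNRNPU had -0.303, with -0.540 and 0.0800. The sets differ in score, so a correlation over all cells also holds the difference between the sets.

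HNRNPA1 had correlations of opposite sign in the sets. Its correlation with the score was 0.373 in the first set and -0.522 in the second. The fitted slopes were 0.16 and -0.13 log2 units per 10 points of score. A limma fit with a separate slope per set, chosen after seeing the data, gave a difference of -0.29 ± 0.10 (unadjusted p = 0.00404, adjusted p = 1.00 over all genes). HNRNPU had slopes of -0.28 and 0.06 and a difference of 0.34 ± 0.14 (unadjusted p = 0.0227, adjusted p = 1.00). These were the only 2 of 42 members with an unadjusted p under 0.05, beside 4.82% of all genes.

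**Figure D4:**
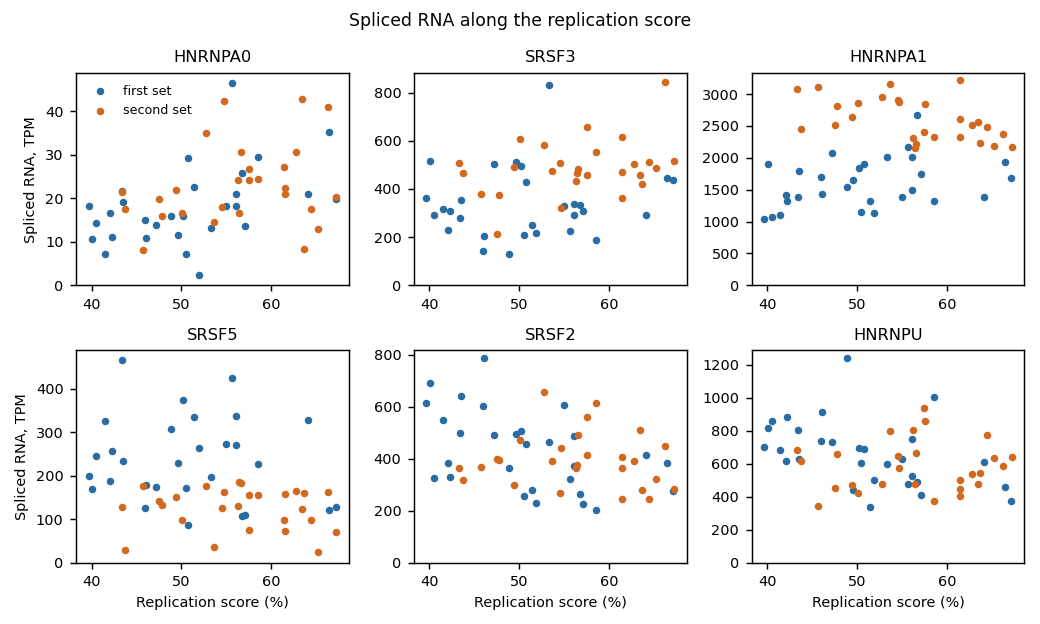
Spliced RNA in TPM against the replication score of the same cell, for the 5 members with the largest correlation and HNRNPA1, with first-set cells in blue and second-set cells in orange. HNRNPA0 has a correlation of 0.489 in the first and 0.238 in the second set, and HNRNPA1 has a correlation of 0.373 in the first and -0.522 in the second set.

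Members tended to vary together within the sets. With the set mean removed, the median of 780 pairwise Spearman correlations among 40 members with at least 10 TPM was 0.0827, and 67.3% were above 0, beside 0.00942 and 52.6% for all 8914 genes at that level. These are descriptions over 56 cells, in which both genes of a pair share library, depth and scaling, and levels were not matched. The strongest pairs linked HNRNPC, HNRNPK and HNRNPA2B1: 0.632 for HNRNPC and HNRNPK, 0.627 for HNRNPC and HNRNPA2B1, and 0.626 for HNRNPK and HNRNPA2B1. HNRNPDL and SRSF3 had 0.562. The most negative pair was HNRNPC and SRSF5, with -0.362.

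Most members lie in DNA that had replicated in nearly all cells. In the 55 cells scored 40 to 70%, the median member was 2-copy in 98.2% of cells with a call, against 92.7% for all expressed genes. Of the 34 members, 29 (85.3%) were 2-copy in over 80% of cells, against 67.98% of all genes, and none was 1-copy in over 80%. SRSF6 on chromosome 20 (43457893 to 43466046, hg38) was the late exception, 2-copy in 29.1% of cells. HNRNPA0 followed with 69.1%, HNRNPF with 72.5%, SRSF5 with 75.9% and SF3B5 with 78.2%. SRSF8 with 81.8% and HNRNPUL1 with 83.3% lay just beyond the limit for testing. The 5 members within the limit were compared between cells with 1 and 2 copies of the gene.

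SRSF6, an SR protein that promotes exon inclusion, had more spliced RNA in cells in which it had been replicated. It had 110, 194 and 303 TPM (lowest, median and highest) in 16 2-copy cells and 70.6, 140 and 229 TPM in 39 1-copy cells. The ranges overlapped widely. At 2 copies it was higher by 0.44 ± 0.14 on the log2(TPM + 1) scale (SE, two-sided Wilcoxon rank-sum p = 0.00560, permutation p = 0.00494), and the adjusted p over 2455 genes was 0.391. The median score was about the same in both groups, 53.7% at 2 copies and 54.7% at 1 copy. In the first set the medians were 162 and 156 TPM (8 and 20 cells), and in the second 231 and 126 TPM (8 and 19 cells). Thus the difference was 0.13 ± 0.20 in the first and 0.75 ± 0.17 in the second set, and these differ by 0.63 ± 0.25 (SE, permutation p = 0.0162, 1 of 5 members examined, chosen after seeing the data).

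HNRNPA0 had 2.29, 20.6 and 46.5 TPM in 38 2-copy cells and 7.30, 15.9 and 22.6 TPM in 17 1-copy cells. The difference was 0.42 ± 0.17 (SE, two-sided Wilcoxon p = 0.0166, permutation p = 0.0159, adjusted p = 0.466). Here 2-copy cells also had higher scores, with a median of 56.2% against 46.0%, and the Wilcoxon p was 0.407 with residuals on the score 0.124 with the set mean removed and 0.0757 in cells scored 45 to 65%. Thus 2 of 5 members had p under 0.05 and both were higher at 2 copies, beside 5.82% of 2455 genes higher at 2 copies and 8.55% in either direction. No gene passed adjustment (lowest adjusted p = 0.234).

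The other members did not differ past the threshold. HNRNPF had medians of 260 TPM in 37 2-copy cells and 235 TPM in 14 1-copy cells (0.16 ± 0.15, 95% interval -0.13 to 0.45). SRSF5 had 163 and 155 TPM in 41 and 13 cells (0.22 ± 0.34, interval -0.44 to 0.88), and SF3B5 had 197 and 196 TPM in 43 and 12 cells (-0.08 ± 0.25, interval -0.58 to 0.41). A doubling, a difference of 1 on this scale, lies outside all 3 intervals, but these pool the library sets. By set (first and second, ± SE), SRSF5 differed by 0.30 ± 0.33 and 0.48 ± 0.58 and HNRNPF by 0.30 ± 0.30 and 0.18 ± 0.16. SF3B5 differed by -0.68 ± 0.37 and 0.52 ± 0.35. The pooled intervals therefore do not settle if a doubling occurred within a set.

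**Figure D5:**
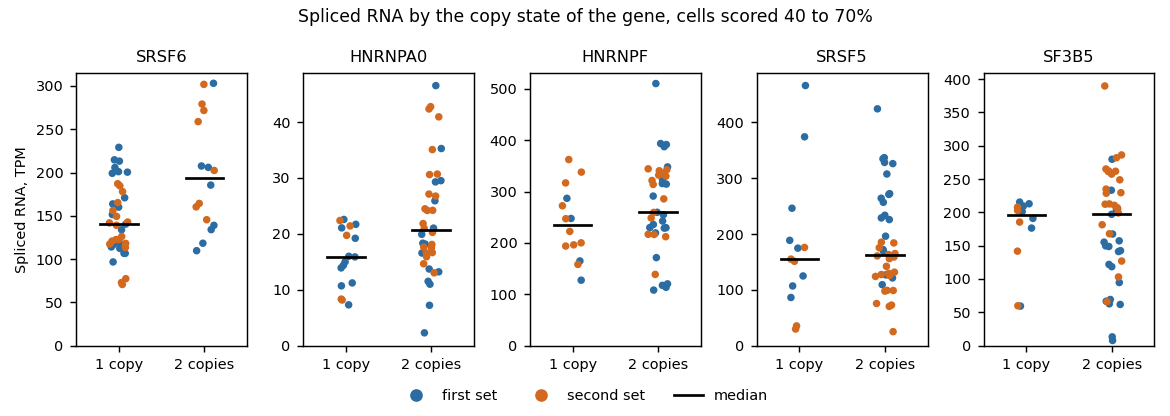
Spliced RNA in TPM of the 5 members that could be tested, in cells with 1 or 2 copies of the gene, with first-set cells in blue, second-set cells in orange and the median as a bar. For SRSF6 the median was 194 TPM at 2 copies and 140 TPM at 1 copy, and the second-set median at 2 copies, 231 TPM, lies above the highest 1-copy cell, 229 TPM.

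Neighbours of SRSF6 did not pass the threshold. Of 3 other tested genes within 500 kb, IFT52 had medians of 57.6 and 38.5 TPM in cells with 2 copies and 1 copy of IFT52 (two-sided Wilcoxon p = 0.0542), and its call matched that of SRSF6 in 89.1% of cells. The cell cycle transcription factor MYBL2 had 118 and 119 TPM (p = 0.877), and TOX2 had 2.89 and 0.435 TPM (p = 0.942). HNRNPA0 had 1 tested neighbour, with p = 0.655.

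In unspliced RNA, 2 members could be tested. HNRNPF had a median of 47 counts (0 to 290) in 37 2-copy cells and 4 counts (0 to 202) in 14 1-copy cells, a difference of 1.32 ± 0.92 on the log2(count + 1) scale (two-sided Wilcoxon p = 0.136, permutation p = 0.138). SRSF5 had 0.33 and 0.25 counts (permutation p = 0.769). Neither passed the threshold, beside 3.77% of 3159 genes called higher at 2 copies and 6.71% in either direction.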

How the data were processed

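Libraries of the same cell number were joined as 1 cell. The authors aligned DNA to hg38 (the submitters' processing notes name BWA 0.7.17-r1188) and deposited 1-copy or 2-copy calls per 40-kb bin and per gene. The deposited spliced values are TPM, taken here as exon reads. The authors describe libraries reduced to a common read number, but if the deposited TPM come from these cannot be told here. The transcript length behind TPM is not stated. Unspliced values were deposited by the authors and treated here as estimated counts (gene-body less exon reads, negatives set to 0), with totals of 425181 to 1353931 per cell, and were rounded for count models. The table's title calls them TPM, but their totals differ between cells and in some exceed the read number to which the authors reduced the libraries, so a printed count is a value on the deposited scale and its exact unit is uncertain. Depth of the original libraries is unknown here.

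Members and gene lists were chosen with earlier results of these data known. Named are all members tested for copy state, up to 10 called per comparison, the highest and lowest levels per subfamily, the extremes of unspliced per spliced RNA, and the 5 largest correlations with the score. The cell is the unit of every test, within 1 experiment.

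Spliced RNA was fitted on log10(TPM + 1) with mgcv 1.9.3 against the score and on log2(TPM + 1) with limma 3.58.1 between library sets. A difference on this scale understates changes of low genes. Unspliced counts were fitted with edgeR 4.0.16 (quasi-likelihood, TMM), with DESeq2 1.42.0 as an alternative, all with Benjamini-Hochberg adjustment over all genes. The copy-state test was the two-sided Wilcoxon rank-sum test in cells scored 40 to 70%, for genes above 0 in over 50% of cells, called in at least 50% and with neither state in over 80%. Permutation p-values used 100000 resamples. Alternatives changed the filter, pseudocount, score range, scaling or tool, or added the library set or score. Fits with a slope or a copy-state difference per set were added after seeing the data. The edgeR and limma fits between the sets, the mgcv fit on the score and the spliced copy-state test were also run on simulated data. All 46 members matched GENCODE version 44 by Ensembl ID. That version differs from the one used for counting. Of the markers and splice sites examined, 1 of each is not reported here.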

Additional observations from a re-analysis of the deposited data

Results flagged for a closer look

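The following results had a p under 0.05 in a test of the difference between the library sets, all in fits chosen after seeing the data. The slope of HNRNPA1 on the score, in log2 units per 10 points, differed by -0.29 ± 0.10 (second less first set), and that of HNRNPU was higher by 0.34 ± 0.14. The unadjusted limma p-values were 0.00404 and 0.0227, and neither passed adjustment over all genes. These are 2 of 42 members (4.76%), near the background of 4.82% of all genes. The copy-state difference of SRSF6 was 0.63 ± 0.25 larger in the second set (permutation p = 0.0162, 1 of 5 members examined, not adjusted). The roles of mitochondrial share, unspliced total and score, which differ between the sets, were not tested.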

How the results depend on the processing

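The number of members called stayed within 1.5 times its value in 22 of 29 alternatives. Most of these 22 had no member called in either setting, so they say little about stability. Without a filter on low counts, unspliced RNA gave 2 members along the score, HNRNPUL1 and HNRNPUL2, and 5 between the sets, of which HNRNPL, HNRNPUL1, HNRNPAB and HNRNPUL2 had counts in 1 to 5 cells and HNRNPH1 in 56. Between the sets, edgeR with DESeq2 size factors gave 1 member and DESeq2 itself 1, HNRNPH1 in both (-0.998 and -0.738 on the log2 scale). In spliced RNA, the copy-state comparison gave 1 member, SRSF6, in place of 2 with the set mean subtracted and 1 with residuals on the score. SRSF6 kept p under 0.05 in each alternative run. In unspliced RNA edgeR, fitted per member on the whole table, gave 1, SRSF5 (log2 difference 1.93, p = 0.0441), whose counts ran from 0 to 33 at 2 copies and 0 to 1.80 at 1 copy. SF3B5 turned: a 2-copy cell exceeded a 1-copy cell in 54.3% of pairs and in 43.99% with the set mean subtracted. In cells scored 45 to 65%, HNRNPUL1 entered the test and was higher at 2 copies in 79.1% of pairs (two-sided Wilcoxon p = 0.0198, 28 and 7 cells, permutation not run). SRSF8 entered too and was not called, being higher at 2 copies in 50% of pairs (32 and 9 cells), while SF3B5 left the test. HNRNPA0 was no longer called there (two-sided Wilcoxon p = 0.0757), so the number of calls stayed the same with a different member. Over all genes, calls along the score went from 7 to 2 in spliced RNA with the set as a term and to 0 in the 41 cells scored 45 to 65%. In unspliced RNA they went from 287 to 118 with the set as a term, 2219 without a filter and 0 with limma on log2 CPM. Unspliced calls between the sets went from 721 to 3984 without a filter. No paired analysis was possible because libraries that share a cell number hold the DNA and the RNA of 1 cell, which are different measurements and no groups to compare. Counts of 1 or less per cell limit the unspliced comparisons, as does exon annotation over introns.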
